A study of Mus musculus with 2 samples.

Results

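The miR-23/27/24 microRNAs were examined in B16 cells, a mouse melanoma line, given an siRNA against Fam222B or a control siRNA. The 5 members are mmu-miR-23a-3p, mmu-miR-27a-3p and mmu-miR-24-3p of the a cluster and mmu-miR-23b-3p and mmu-miR-27b-3p of the b cluster, written without the species prefix where no confusion arises. They were taken by name from 1900 miRNA probes, and each has 1 spot on an array. miR-24-3p is a product of both clusters, so 1 probe reads both sources.

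Both groups grew in DMEM with 5% serum. After 24 h of preincubation the siRNA was delivered with a lipid reagent, and total RNA was taken 48 h later. The Fam222B-siRNA group and the Control-siRNA group had 1 array each (n = 1), so replicate error is unknown throughout and the groups could not be tested against each other. The arrays read miRNAs and not the Fam222B transcript, and the depth of the knockdown was not analysed here. In cultures measured as a whole, fewer cells that make a miRNA and less of it per cell cannot be told apart.

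Each cluster is a short stretch of DNA that carries a miR-23, a miR-27 and a miR-24 hairpin, which are cut from a shared primary transcript. The strand that is kept by Argonaute pairs with target mRNAs mainly through its seed, bases 2 to 8 from the 5′ end. These miRNAs are known for roles in blood vessel growth and in T cells. miR-27 restrains the formation of fat cells, miR-24 restrains the cell cycle in human cells, and miR-23 represses glutaminase in human cancer cells.

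The a cluster lies on the plus strand of chromosome 8 (chr8:84208518-84208921, build GRCm38.p6, RefSeq), where its 3 hairpins span 404 bases and no protein-coding gene covers them, while Mir3074-2 lies on the opposite strand over Mir24-2. The b cluster lies on the plus strand of chromosome 13 (chr13:63300484-63301275) and spans 792 bases inside Aopep, an aminopeptidase gene. RefSeq sequences matched 1614 of the 1900 probes and, by name, 4 of the 5 members, all but miR-23b-3p. They are shown because the miR-27 products of both clusters share a seed and differ near the 3′ end, and miR-24-3p is the same from both. The seed is in capitals.
miR-23a-3p: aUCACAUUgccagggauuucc
miR-27a-3p: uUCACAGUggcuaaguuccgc
miR-27b-3p: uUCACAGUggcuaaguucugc
miR-24-3p: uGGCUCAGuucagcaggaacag
miR-27a-3p lies at chr8:84208727-84208747 and miR-27b-3p at chr13:63300760-63300780. Both are 21 bases long and differ by the single substitution C19U, with positions counted from the 5′ end of miR-27a-3p. A probe for one may therefore bind some of the other, which the files do not measure. Without a sequence for miR-23b-3p, the same limit could not be examined for miR-23a-3p and miR-23b-3p. miR-23a-3p lies at chr8:84208563-84208583. miR-24-3p has copies at chr8:84208875-84208896 and chr13:63301251-63301272. The 4 sequences hold between 47.6% and 54.5% G and C, where the median of the matched probes is 52.2%.

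Signals are given as net units, the median Cy5 brightness of a spot minus the mean of the 896 blank spots of its array (69.9 units for Fam222B-siRNA and 70.3 for Control-siRNA). A miRNA was called detected above the blank mean plus 2 SD, which was 73.2 units on the Fam222B-siRNA array and 73.4 on the Control-siRNA array. By this rule 877 probes were detected in Fam222B-siRNA cells and 1056 in Control-siRNA cells, 823 of them on both. Spot SDs below come from 5 bright control probes, each present in 8 copies per array (pooled CV 4.78% for Fam222B-siRNA and 4.67% for Control-siRNA) and from the spread of the blank spots, whose SD was 1.66 and 1.54 units. Such an SD holds no difference between cultures or hybridisations. The pigment cell miRNA miR-211-5p gave 326 net units in Fam222B-siRNA cells and 264 in Control-siRNA cells, whereas miR-211-3p gave 70.4 with Fam222B siRNA and 83.3 with control siRNA, and miR-204-5p gave 30.2 with Fam222B siRNA and 36.3 with control siRNA. Of 11 markers of endothelium, blood, fibroblasts, muscle and liver, 4 were detected in Fam222B-siRNA cells and 8 in Control-siRNA cells. Those detected with control siRNA alone lay between 3.34 and 5.05 net units on that array. Over all miRNA probes, 46.2% were detected on the Fam222B-siRNA array and 55.6% on the Control-siRNA array. The 11 markers had summed net signals of 187 units in Fam222B-siRNA cells and 241 in Control-siRNA cells. Their part in the results below was not tested. The fibroblast and smooth muscle markers held most of these sums and were lower in signal in Fam222B-siRNA cells, with miR-143-3p at 112 net units in Fam222B-siRNA cells and 139.96 in Control-siRNA cells (log2 difference after scaling -0.22, spot SD 0.100) and miR-145a-5p at 42.9 with Fam222B siRNA and 54.0 with control siRNA (-0.23, spot SD 0.119). The endothelial marker miR-126a-3p stood at 12.2 net units with Fam222B siRNA and 11.9 with control siRNA, and miR-126a-5p at 3.06 with Fam222B siRNA, below detection, and 3.77 with control siRNA.

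All 5 members were detected on both arrays, at 66.2 to 230 times the SD of the blank spots with Fam222B siRNA and 73.1 to 220 times with control siRNA. Together they held 0.880% of the net signal of detected probes in Fam222B-siRNA cells and 0.833% in Control-siRNA cells. The order of the 5 signals was the same on both arrays, with miR-23a-3p highest, then miR-24-3p, miR-23b-3p, miR-27a-3p and miR-27b-3p. Probes differ in how strongly they bind, so this is an order of signals and not of RNA amounts. Of neighbours in that order, miR-24-3p and miR-23b-3p did not differ beyond 2 spot SD on either array, and miR-23a-3p and miR-24-3p did so in Fam222B-siRNA cells (log2 ratio 0.29, spot SD 0.098) but not in Control-siRNA cells (0.13, spot SD 0.096). miR-23b-3p stood above miR-27a-3p by a log2 ratio of 0.39 in Fam222B-siRNA cells and 0.48 in Control-siRNA cells, past 2 spot SD on each array.

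mmu-miR-23a-3p, which shares its cluster with miR-27a-3p, gave 382 ± 18.3 net units in Fam222B-siRNA cells and 338 ± 15.9 in Control-siRNA cells (spot SD, n = 1 array each). mmu-miR-27a-3p gave 221 ± 10.7 net units in Fam222B-siRNA cells and 204 ± 9.66 in Control-siRNA cells. Both products that come from the a cluster alone were thus higher in signal in Fam222B-siRNA cells, by 1.13-fold and 1.08-fold before any scaling between arrays. mmu-miR-24-3p, made by both clusters, gave 312 ± 15.01 net units in Fam222B-siRNA cells and 308 ± 14.5 in Control-siRNA cells. mmu-miR-23b-3p gave 290 ± 13.9 net units with Fam222B siRNA and 285 ± 13.4 with control siRNA. mmu-miR-27b-3p, the dimmest member, gave 110 ± 5.51 net units in Fam222B-siRNA cells and 112 ± 5.47 in Control-siRNA cells. For these last 3 the values lay within 1 spot SD of each other.

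**Figure D1:**
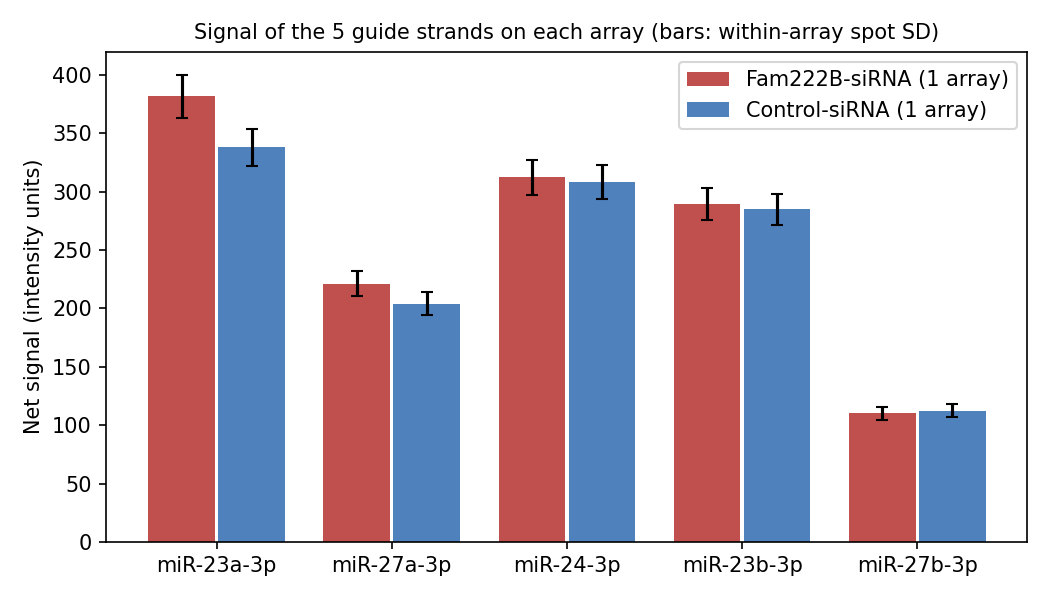
Net signal in intensity units of the 5 members, with Fam222B-siRNA in red and Control-siRNA in blue, 1 array each. Error bars are the spot SD within an array. miR-23a-3p stands at 382 units in Fam222B-siRNA cells and 338 in Control-siRNA cells, and miR-27b-3p at 110 in Fam222B-siRNA cells and 112 in Control-siRNA cells.

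For the comparison between arrays, the Fam222B-siRNA signals were multiplied by 1.07, which sets the medians of the 823 miRNAs detected on both arrays equal, and each difference is the log2 ratio of the Fam222B-siRNA to the Control-siRNA signal. miR-23a-3p had a difference of 0.28 (spot SD 0.097) and miR-27a-3p one of 0.22 (spot SD 0.098). miR-23b-3p stood at 0.12 (spot SD 0.097), miR-24-3p at 0.12 (spot SD 0.097) and miR-27b-3p at 0.069 (spot SD 0.101). The median of the 5 members was 0.12, where all 823 miRNAs had a median of -0.0087.

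Bright miRNAs as a whole lay above 0. The 96 miRNAs that reached 100 net units on each array, the members among them, had a median of 0.12 and an SD of 0.14, with values between -0.22 and 0.41. Relative to that median, miR-23a-3p stood at 0.16, miR-27a-3p at 0.098, miR-23b-3p at 0.0049, miR-24-3p at 0.0021 and miR-27b-3p at -0.050. Of the bright miRNAs, 86 had a lower difference than miR-23a-3p and 9 a higher one. For miR-27a-3p these counts were 74 and 21, while miR-23b-3p, with 51 and 44, and miR-24-3p, with 50 and 45, lay near the middle. miR-27b-3p had 38 bright miRNAs below it and 57 above.

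No member passed 2-fold, up or down. Among all 823 miRNAs, 26 (3.16%) did so, 16 of them higher (1.94%) and 10 lower (1.22%), and among the 96 bright ones 0 (0%) did. Of the members, 2 differed by more than 2 spot SD, miR-23a-3p and miR-27a-3p, both higher in Fam222B-siRNA cells. Over all 823 miRNAs 58 (7.05%) were higher by more than 2 spot SD and 20 (2.43%) lower. Over the 96 bright miRNAs 24 (25%) were higher and 2 (2.08%) lower, so a bright miRNA past this limit was common. Without scaling between arrays, miR-23a-3p had a difference of 0.18, miR-27a-3p of 0.12 and miR-27b-3p of -0.031, and none of these exceeded 2 spot SD. That setting moved the median of all miRNAs to -0.11. With the medians of the bright miRNAs set equal, miR-23a-3p stood at 0.22 and miR-27a-3p at 0.17, and of the pair miR-23a-3p alone was past 2 spot SD.

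**Figure D2:**
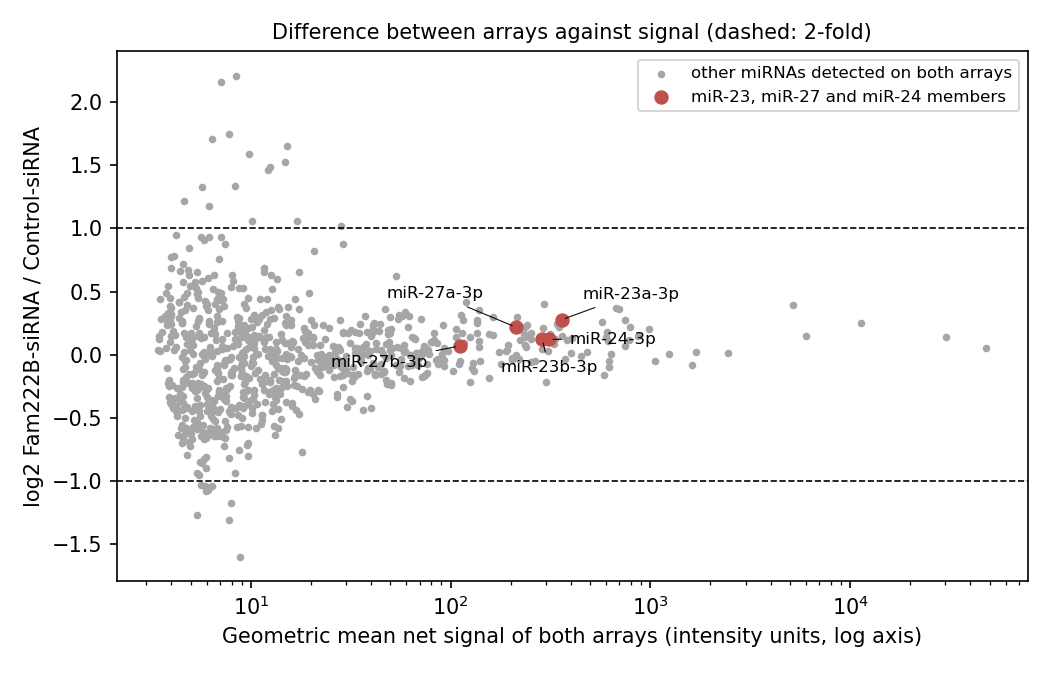
Each point is a miRNA detected on both arrays (823). The horizontal axis is the geometric mean net signal in intensity units on a log axis and the vertical axis the log2 difference after scaling to equal medians. The 5 members, in red, lie between 0.069 and 0.28, inside the range of miRNAs of like signal and far from the dashed 2-fold lines.

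The miRNAs printed around the members differed from block to block. miR-23a-3p was printed in block 14, where the other 21 detected miRNAs had a median difference of -0.19. miR-27a-3p was printed in block 28, where 33 others had a median of 0.17, close to its own value. miR-24-3p lay in block 4, with a median of -0.011 over 25 others. miR-23b-3p and miR-27b-3p were adjacent spots of block 6, where 30 others had a median of -0.11. The part of the block in the members' values was not tested. When each spot was corrected by the blank spots of its own block, the differences were 0.29 for miR-23a-3p, 0.22 for miR-27a-3p, 0.14 for miR-24-3p, 0.14 for miR-23b-3p and 0.091 for miR-27b-3p.

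The products of the clusters were next compared within each array, where no scaling is needed. The signal of miR-23a-3p was 1.32 times that of miR-23b-3p in Fam222B-siRNA cells and 1.19 times in Control-siRNA cells. On the log2 scale the ratio was 0.40 (spot SD 0.098) in Fam222B-siRNA cells and 0.25 (spot SD 0.096) in Control-siRNA cells, and these differed by 0.15 (spot SD 0.137). miR-27a-3p gave 2.01 times the signal of miR-27b-3p in Fam222B-siRNA cells and 1.82 times in Control-siRNA cells. This log2 ratio was 1.01 (spot SD 0.100) in Fam222B-siRNA cells and 0.86 (spot SD 0.098) in Control-siRNA cells, again 0.15 apart (spot SD 0.140). Both a-over-b ratios were therefore larger in Fam222B-siRNA cells by about 1 spot SD, a size that repeated spots of an array also show. The limits of 2 spot SD around these changes were -0.12 to 0.43 for miR-23 and -0.13 to 0.43 for miR-27.

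**Figure D3:**
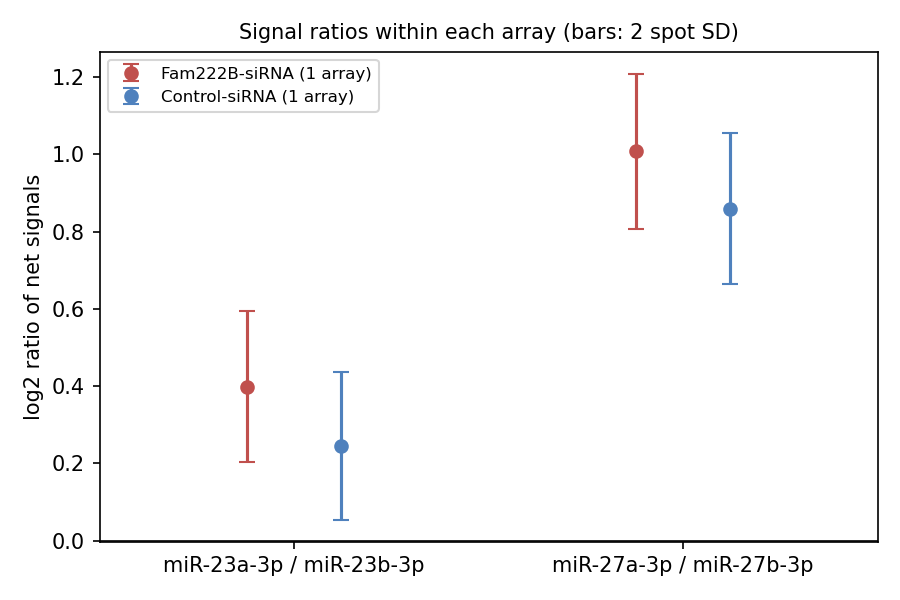
Log2 ratio of net signals within an array for the a product over the b product, with Fam222B-siRNA in red and Control-siRNA in blue. Bars are 2 spot SD. The ratios are 0.40 with Fam222B siRNA and 0.25 with control siRNA for miR-23, and 1.01 with Fam222B siRNA and 0.86 with control siRNA for miR-27. The bars overlap in both pairs.

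Averaged over miR-23 and miR-27, the a products had a difference between arrays of 0.25 and the b products of 0.096. The a products exceeded the b products by 0.15 (spot SD 0.098), or 2 spot SD limits of -0.046 to 0.35. Summed net signals of the pair were 603 units in Fam222B-siRNA cells and 542 in Control-siRNA cells for the a cluster. For the b cluster they were 399.6 units in Fam222B-siRNA cells and 397 in Control-siRNA cells. Against miR-24-3p, the shared product, the log2 ratio of miR-23a-3p was larger in Fam222B-siRNA cells by 0.16 (spot SD 0.137) and that of miR-27a-3p by 0.096 (spot SD 0.138). The log2 ratio of miR-23b-3p to miR-24-3p moved by 0.0027 and that of miR-27b-3p by -0.052, both well within 1 spot SD. Inside a cluster the balance of miR-27 to miR-23 also held within 1 spot SD, with changes of -0.059 in the a cluster and -0.054 in the b cluster.

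The miR-27 pair can be set beside other bright miRNA pairs whose RefSeq sequences have equal length and 1 different base. Sequences were matched for 85 of the 96 bright miRNAs. miR-23b-3p was not among them, so the miR-23 pair could not be considered. There were 7 such pairs beside the miR-27 pair, 4 of them within the let-7 family and sharing members. The others were miR-17-5p with miR-106a-5p, miR-30a-5p with miR-30e-5p and miR-107-3p with miR-103-3p. Their log2 ratios moved between the arrays by 0.052 to 0.084 in size (median 0.074), against 0.15 for the miR-27 pair. In units of its own spot SD the change was 0.382 to 0.614 for the 7 pairs and 1.06 for the miR-27 pair. The pairs were chosen after the data were seen. miR-27a-3p and miR-27b-3p lie in blocks 28 and 6, where the other detected miRNAs had median differences of 0.17 and -0.11. The part of the block in the change of the miR-27 pair was not tested.

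The choice of scale factor or detection filter shifted all members by the same amount, while the background and quantile settings did not shift them equally. Leaving aside the files' own background column, miR-23a-3p ranged from 0.10 to 0.42 and miR-27a-3p from 0.12 to 0.36 over the settings tried, always above 0. miR-24-3p and miR-23b-3p ranged from 0 to 0.27, and miR-27b-3p from -0.057 to 0.22. With an offset of 50 and quantile normalization miR-24-3p and miR-23b-3p kept their ranks and so had a difference of 0 by construction, while miR-23a-3p stood at 0.10, miR-27a-3p at 0.12 and miR-27b-3p at -0.045. The authors' processed values, used as deposited, gave 0.30 for miR-23a-3p, 0.24 for miR-27a-3p, 0.14 for miR-24-3p, 0.14 for miR-23b-3p and 0.089 for miR-27b-3p.

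**Figure D4:**
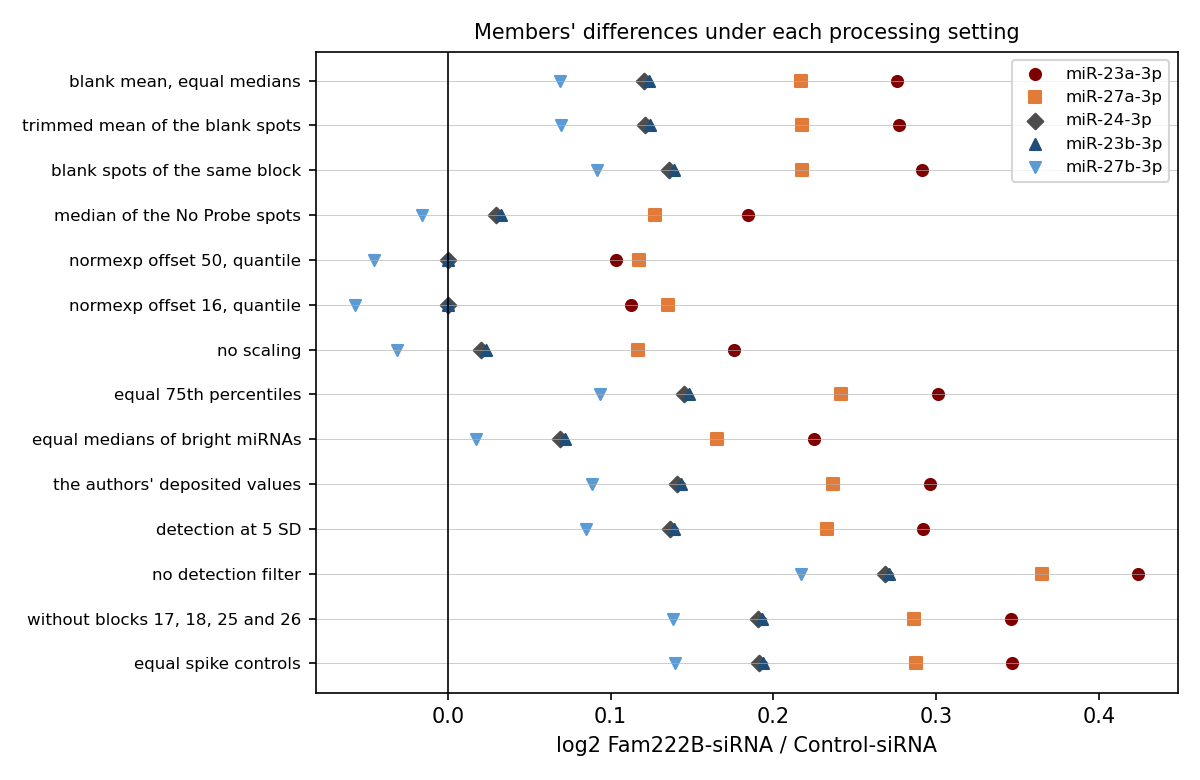
Log2 difference of each member (horizontal axis) under each background, scaling or filter (vertical axis, one setting per line), without the files' own background column. The markers keep their spacing where only the scale factor or filter changes, but not under the offset and quantile settings. miR-23a-3p or miR-27a-3p lies furthest right on every line, and miR-27b-3p lies furthest left, between -0.057 and 0.22.

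The files' own background column reversed the direction of the a products against the b products. It was between 125 and 415 units for the members' spots on the Fam222B-siRNA array and between 158 and 302 on the Control-siRNA array, far above the blank spots. It tracked the spot it belongs to, with Spearman's rho across the 96 bright miRNAs of 0.897 on the Fam222B-siRNA array and 0.791 on the Control-siRNA array. These probes share an array and are not independent. With that column subtracted, miR-23a-3p was at -0.56, miR-27a-3p at -1.38, miR-23b-3p at 0.38 and miR-27b-3p at 1.80. miR-24-3p had no value, because its column entry on the Fam222B-siRNA array, 415 units, exceeded its spot of 382 units. The bright miRNAs had an SD of 1.29 with this column, against 0.14 with the blank spots.

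The other arms of the same hairpins are made with the members but are mostly degraded, and 6 such probes were on the arrays. Of these, 2 were detected in Fam222B-siRNA cells and 4 in Control-siRNA cells. miR-24-2-5p, the other arm of the a cluster's miR-24 hairpin, was the brightest at 20.3 ± 1.92 net units in Fam222B-siRNA cells and 20.7 ± 1.82 in Control-siRNA cells, a log2 difference of 0.075 (spot SD 0.186). miR-24-1-5p, its counterpart from the b cluster, gave 3.74 ± 1.67 net units in Fam222B-siRNA cells and 6.47 ± 1.57 in Control-siRNA cells (-0.69, spot SD 0.733). These 2 arms are shown because they differ at the 3′ end, so they are tied to 1 locus each, which miR-24-3p is not. A probe for 1 arm may still bind some of the other, which was not measured. The 2 arms share the seed, in capitals.
miR-24-2-5p: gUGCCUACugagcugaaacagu
miR-24-1-5p: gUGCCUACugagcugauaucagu
Neither differed between the arrays by more than 2 spot SD.

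miR-23a-5p gave 1.61 net units in Fam222B-siRNA cells, below detection, and 4.23 in Control-siRNA cells. This Control-siRNA signal was 1.18 times the lowest detected signal of the Fam222B-siRNA array after scaling, a ratio that leaves out the spot SD. miR-23b-5p gave 0.938 net units in Fam222B-siRNA cells, below detection, and 3.52 in Control-siRNA cells, and no fold can be given. Both changes were within 2 spot SD. miR-27a-5p stood at -1.63 net units in Fam222B-siRNA cells and 0.201 in Control-siRNA cells. miR-27b-5p stood at 0.798 net units in Fam222B-siRNA cells and 0.562 in Control-siRNA cells, and both were below detection on each array. The bright miR-27a-3p and miR-27b-3p thus had partner arms that could not be measured at this signal over background.

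On the opposite strand, miR-3074-5p overlaps miR-24-3p by 20 bases at both loci, and its sequence is shown for that overlap, with its own seed in capitals.
miR-3074-5p: gUUCCUGCugaacugagccagu
It gave 2.81 ± 1.67 net units in Fam222B-siRNA cells, below detection, and 8.53 ± 1.59 in Control-siRNA cells. The Control-siRNA signal was 2.39 times the lowest detected signal of the Fam222B-siRNA array after scaling, a ratio that leaves out the spot SD. The change of -5.72 net units was -2.48 times its spot SD of 2.30, the widest among the 9 further products in those terms. It rests on 1 dim spot per array. Dim probes outside these loci changed by more net units in either direction, and their share of the 1900 probes was not counted. The change is therefore not particular to miR-3074-5p. miR-3074-1-3p gave 7.28 ± 1.70 net units in Fam222B-siRNA cells and 5.12 ± 1.56 in Control-siRNA cells, and miR-3074-2-3p was below detection on both arrays. Over the 9 probes of both kinds, 3 were detected in Fam222B-siRNA cells and 6 in Control-siRNA cells. Over all 1900 probes 46.2% were detected on the Fam222B-siRNA array and 55.6% on the Control-siRNA array, and the part of that gap in these counts was not tested.

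**Figure D5:**
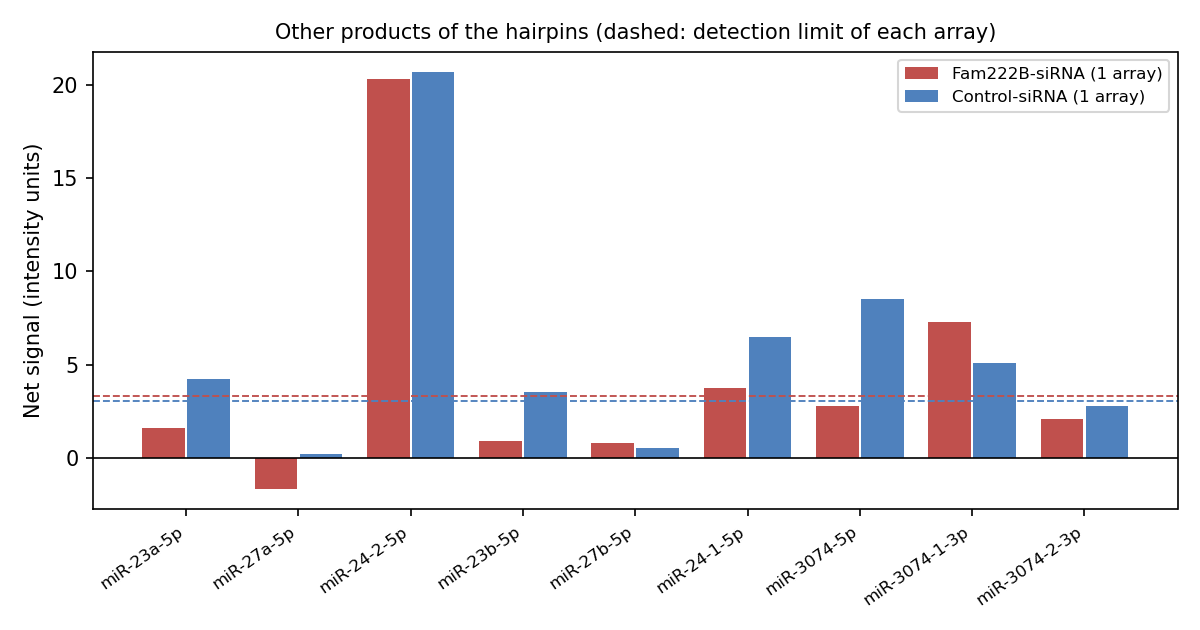
Net signal in intensity units of the 9 other products of the loci, with Fam222B-siRNA in red and Control-siRNA in blue, 1 array each. Dashed lines are the detection limits. miR-24-2-5p stands out at 20.3 units in Fam222B-siRNA cells and 20.7 in Control-siRNA cells, and most others lie near the limits.

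Among the matched probes, the seed of miR-27a-3p was found in miR-27b-3p alone. The seed of miR-24-3p was found in 4 further probes, which were weak. miR-6369 had the most signal of these, at 10.02 net units in Fam222B-siRNA cells and 13.9 in Control-siRNA cells (-0.37, spot SD 0.303). miR-6410 gave 8.50 net units with Fam222B siRNA and 9.56 with control siRNA. miR-5124b gave 5.67 net units with Fam222B siRNA and 6.005 with control siRNA, and miR-6413 was below detection on both arrays. miR-128-3p, a brain-enriched miRNA whose first 7 bases equal the miR-27 seed, gave 8.13 net units in Fam222B-siRNA cells and 11.4 in Control-siRNA cells (-0.39, spot SD 0.366). None of these differed by more than 2 spot SD.

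With 2 arrays a pattern is 1 number per miRNA, so likeness was taken as the distance of a bright miRNA's log2 difference from the members' median of 0.12. The nearest were let-7e-5p, miR-29a-3p and miR-30d-5p, each at 0.12 and within 0.0059 of it. Because the 96 bright miRNAs also had a median of 0.12, this choice picks miRNAs from the middle of the bright set. It shows no pattern shared with miR-23a-3p (0.28) or miR-27a-3p (0.22). let-7e-5p gave 255 net units in Fam222B-siRNA cells and 252 in Control-siRNA cells. miR-29a-3p gave 334 with Fam222B siRNA and 330 with control siRNA, and miR-30d-5p gave 385 with Fam222B siRNA and 380 with control siRNA.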

How the data were processed

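Total RNA labelled with Cy5 was hybridised to Toray 3D-Gene miRNA arrays with 1 colour, per the labels' protocols. The deposited scanner files hold the median intensity of each of 3200 spots in 32 blocks, with no background subtracted, per the file headers. The sources used here do not name the scanner. The authors' deposited table holds processed intensity values: set against the spots, each column is a straight line with a background of 69.8 and slope 3.69 (Fam222B-siRNA) or 70.2 and 3.40 (Control-siRNA), and medians of 34.6 and 25.0. It is linear and not centred per miRNA.

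Groups follow the treatment in the labels. Each array had 1 miRNA spot flagged NG, which was not counted as detected. Flags were not applied to the blank and control spots. Net signal, detection, scaling and spot SD are as given above. With 1 array per group, whose number limits the precision, no p-value was computed. Python 3.11.15 (numpy 2.4.6, scipy 1.17.1) and, for normexp, limma 3.58.1 in R 4.3.3 were used, and the steps were tested on simulated arrays. The members and lists were chosen with earlier results of these data known. Named miRNAs are the members, the other products of their hairpins, miRNAs that share a seed, miR-128-3p, cell type markers and the 3 bright miRNAs nearest to the members' median. Pairs with 1 different base were chosen after the data were seen. The processing differs from the usual offset and quantile step, which gives 0 to a miRNA that keeps its rank; that step is an alternative.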

Additional observations from a re-analysis of the deposited data

How the results depend on the processing

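No paired analysis was possible because each group had 1 array. The a-over-b changes lay between 0.10 and 0.15 for miR-23 and between 0.13 and 0.19 for miR-27, except with the files' own background column. There they were -0.93 and -3.18. Scale factors and detection filters cannot move a ratio taken within an array. Only the other background settings and the quantile settings could therefore move these changes. The members' median difference of 0.12 was 0.033 with the No Probe background, 0 with normexp and quantile normalization at an offset of 50 or 16, 0.023 with no scaling, 0.072 with equal medians of bright miRNAs, 0.27 with no detection filter, 0.19 without blocks 17, 18, 25 and 26, and 0.19 with equal spike controls, a scaling chosen after seeing the data. It had no value with the files' own background column. These shifts come from the scale factor alone except under the offset and No Probe settings, where the background changed too. With the No Probe background the a-over-b changes, which no scale factor can move, were 0.152 for miR-23 and 0.143 for miR-27. The members' shift under that setting was therefore mostly one of scale. Past 2-fold, 16 miRNAs were higher and 10 lower, and these counts became 44 and 56 at 1.5-fold, 55 and 116 with the files' own background column, 0 and 0 at either offset, 26 and 22 with the authors' values, 4 and 0 with detection at 5 SD, 98 and 181 with no detection filter, and 3 and 4 without the blocks. The lower count was 4 with the No Probe background and 6 with equal spike controls. No member passed 2-fold in any setting but the files' own background column, where miR-27a-3p (-1.38) and miR-27b-3p (1.80) did. Dim probes near the blank spots limit the other arms.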
